A study of Mus musculus with 7 samples.

Results

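In iMOP cells, 2258 of the 35723 genomic regions that carried C-MYC in both replicates also carried RNA polymerase II (POLII) but no SOX2. C-MYC peaks that overlapped by 1 bp or more were joined into regions, which were kept when both replicates contributed a peak. It was placed in this group when no SOX2 peak of either replicate and at least 1 POLII peak of either replicate lay on it. These regions, called C-MYC/POLII regions here, made up 6.32% of all C-MYC regions. The remaining C-MYC regions comprised 20785 with SOX2 and POLII (C-MYC/SOX2/POLII regions), 7397 with neither (C-MYC-alone regions) and 5283 with SOX2 but no POLII. The group therefore was defined by peak calls of all 3 antibodies, and its size and its POLII and SOX2 calls are descriptions and not results of a test.

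iMOP cells are an immortalized multipotent otic progenitor line of the mouse, made by introducing *c-Myc* with a retrovirus into SOX2-expressing progenitors of the embryonic cochlea. All 6 samples came from the same kind of culture, floating otospheres in DMEM/F12 with B27 and 20 ng/ml of bFGF, and none had another genotype or a named small molecule. ChIP-seq, which sequences the DNA isolated with an antibody against a chromatin protein, used 3 antibodies, directed at POLII (clone 4H8), C-MYC (N-262) and SOX2, with 2 biological replicates of each. Whether the replicates came from 1 clone or several is not given in the sources used here. The identity of the cells could not be read from these data, since peaks were not assigned to marker genes.

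C-MYC is a basic helix-loop-helix factor that binds DNA with its partner MAX, mostly at promoters whose chromatin is already open, and is known for raising transcription in dividing cells. SOX2 binds DNA through an HMG box, marks neurosensory progenitors of the inner ear and often acts at enhancers. POLII transcribes protein-coding genes, and the 4H8 antibody binds the repeats in its carboxy-terminal domain. A C-MYC region with POLII and without SOX2 is thus a place where the general transcription machinery was detected with C-MYC but without a called peak of the lineage factor.

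The 6 peak lists held between 26637 and 53528 peaks with 1705241 to 4488517 tags in peaks, and the total reads per sample are not in the files. Every list stops at a p-value of 1e-05, so a region without SOX2 is a region with no SOX2 peak past that threshold, and weaker binding was not measured. The POLII replicates differed from each other. SOX2 peaks lay on 77.8% of all peaks of POLII replicate 2 but on 19.6% of those of replicate 1, and each replicate is therefore given separately below. With 2 replicates per antibody the smallest two-sided p of an exact permutation test on paired differences is 0.5, and regions are not replicates, so differences are given within each replicate list with their SD over the replicates and without a p-value.

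POLII was found less often where SOX2 was absent. A POLII peak of either replicate lay on 64.5% of all C-MYC regions, and 27% of all C-MYC regions had no SOX2 peak. Of the 9655 C-MYC regions without SOX2, 23.4% held a POLII peak (95% Wilson confidence interval 22.6 to 24.2, counting error only), against 79.7% (79.2 to 80.2) of the 26068 with SOX2. Both POLII replicates had this order. POLII replicate 1 lay on 7.63% of the regions without SOX2 and on 16.8% of those with it. POLII replicate 2 lay on 17.0% and 76.7%. As these calls fixed the groups, the shares describe how the C-MYC regions divide. They depended on the SOX2 lists. Without SOX2 replicate 1, 8103 regions met the definition and the share with POLII among regions without SOX2 was 45.6%, and without SOX2 replicate 2 the values were 3988 and 30.4%.

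Few C-MYC/POLII regions had POLII in both replicates. Of the 2258 regions, 1521 (67.4%) held a peak of POLII replicate 2 only, 621 (27.5%) of replicate 1 only and 116 (5.14%) of both. Among C-MYC/SOX2/POLII regions the shares were 79.0%, 3.81% and 17.2%. Regions resting on POLII replicate 1 alone thus made up a larger part of the group without SOX2. Without POLII replicate 1 the group had 1637 regions, and without POLII replicate 2 it had 737.

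C-MYC/POLII regions carried fewer C-MYC tags than regions that also had SOX2. Their median was 31 tags in C-MYC replicate 1 (lower and upper quartiles 18 and 58, range 9 to 811) and 35 tags in replicate 2 (quartiles 19 and 66, range 9 to 875). C-MYC/SOX2/POLII regions had medians of 74 and 82 tags. The ratio of the medians was 0.423 ± 0.006 (SD, n = 2 C-MYC replicates), or -1.24 ± 0.019 on the log2 scale, so the replicates differed far less from each other than the groups did. The groups overlapped widely, but 82.3% of the C-MYC/POLII regions in replicate 1 and 81.9% in replicate 2 lay below the median of the regions with SOX2.

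**Figure D1:**
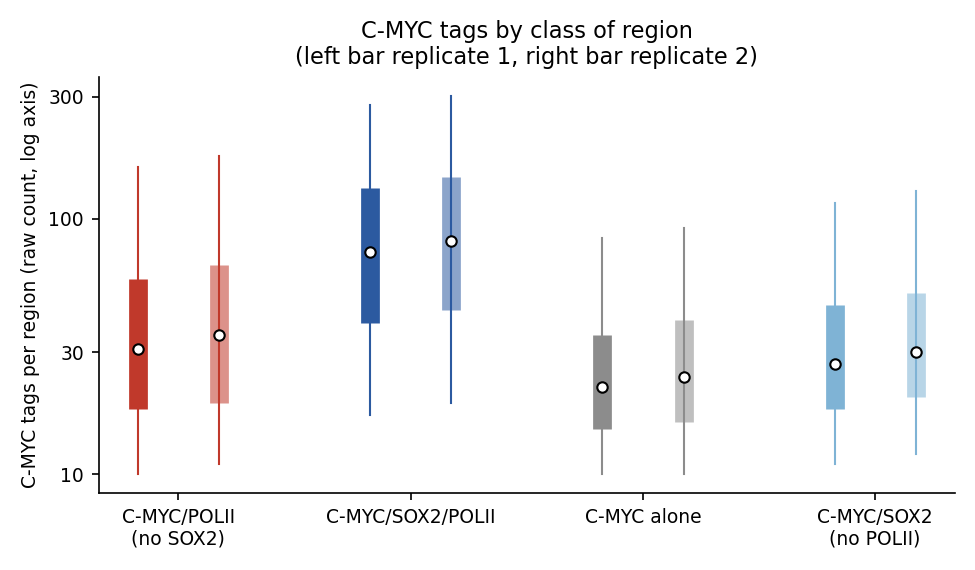
Raw C-MYC tags per region (log axis) for the 4 classes of C-MYC regions, with replicate 1 on the left and replicate 2 on the right of each pair. Circles are medians, thick bars run between the quartiles and thin lines from the 5th to the 95th percentile. C-MYC/POLII regions (31 and 35 tags) lie between C-MYC-alone regions (22 and 24) and C-MYC/SOX2/POLII regions (74 and 82).

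C-MYC/POLII regions were also narrower than C-MYC/SOX2/POLII regions. Their median width was 780.5 bp, against 1104 bp with SOX2 and POLII and 640 bp for C-MYC alone. Because any overlap with a SOX2 or POLII peak counted, a wider region could meet such a peak more easily. What part this had in the widths and tags was not tested. The ratio of median C-MYC peak lengths, without against with SOX2, was 0.702 ± 0.006 (SD, n = 2). Per kb of merged region, C-MYC/POLII regions held 38.8 and 43.4 tags in the replicates, against 64.9 and 71.2 in C-MYC/SOX2/POLII regions. Tag density was therefore also lower than in C-MYC/SOX2/POLII regions, at a ratio of 0.604 ± 0.008 (SD, n = 2). Regions with SOX2 but no POLII did not have these higher values. Their median width was 714 bp, with 27 and 30 C-MYC tags and 38.4 and 42.6 tags per kb in the replicates.

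Fold enrichment, the ratio of a peak to its background as deposited, separated the groups much less than tags. Its median was 9.90 in C-MYC replicate 1 and 9.61 in replicate 2, against 11.09 and 10.84 in C-MYC/SOX2/POLII regions, a ratio of 0.889 ± 0.005 (SD, n = 2). Compared with C-MYC-alone regions, C-MYC/POLII regions had more tags but lower enrichment. The tags were higher by a ratio of 1.43 ± 0.035 (SD, n = 2, from 22 and 24 tags for C-MYC alone), while the fold enrichment was lower, at 0.929 ± 0.001 (SD, n = 2) of the 10.66 and 10.33 of those regions. A C-MYC/POLII region was hence wider and held more tags than a region with C-MYC alone, at a lower fold enrichment.

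The difference in C-MYC tags varied with the POLII replicate that the region rested on. Among regions with POLII replicate 2 only, the medians were 37 and 42 tags without SOX2 and 73 and 81 with it. Regions with both POLII replicates had medians of 32.5 and 35 tags without SOX2 and 97 and 106 with it. Where POLII replicate 1 alone had a peak, the medians were close, at 18 and 19 tags without SOX2 and 23 and 26 with it. The difference between the groups was thus larger among regions with a POLII replicate 2 peak. Leaving out POLII replicate 1 altogether gave a log2 difference of -1.04, and leaving out SOX2 replicate 1 gave -0.66. Leaving out POLII replicate 2 gave -1.97, but this set unlike mixes of regions side by side. Of its 737 regions without SOX2, 621 had POLII replicate 1 only, whereas 3582 of its 4374 regions with SOX2 had peaks of both.

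The counts differed with which SOX2 replicate had a peak. Among C-MYC regions with POLII, the median C-MYC tags were 31 and 35 without SOX2, 37 and 42 where SOX2 replicate 2 alone had a peak (1730 regions), 61 and 68 where SOX2 replicate 1 alone did (5845 regions), and 88 and 98 with both (13210 regions). POLII replicate 2 had medians of 40, 42, 129 and 134 tags in the same order. Regions with SOX2 replicate 2 alone were thus close to regions without SOX2 in POLII replicate 2 tags, and those with SOX2 replicate 1 alone were close to regions with both. POLII replicate 1 showed little difference, with medians of 30, 32, 34 and 30 tags. C-MYC fold enrichment was 9.90 and 9.61 without SOX2 and 10.66 and 10.40 with SOX2 replicate 2 alone, but 10 and 9.79 with SOX2 replicate 1 alone, so it did not follow the order of the tags.

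The share of C-MYC/POLII regions fell steadily with C-MYC score. When all C-MYC regions were ranked by the peak score (10 times the −log10 of the p-value) and divided into quintiles, the group made up 11.1%, 8.87%, 6.86%, 3.51% and 1.26% of the regions from the lowest to the highest quintile. In counts these were 793, 634, 490, 251 and 90 regions. The fall was not particular to this group. From the lowest to the highest quintile, C-MYC-alone regions went from 45.8% to 1.89%, and regions with SOX2 but no POLII from 19.5% to 3.79%. Among regions with POLII, the part lacking SOX2 was 32.0% in the lowest quintile and 1.34% in the highest. Strong C-MYC regions that had POLII almost always had SOX2 as well. Among the regions without SOX2, in contrast, POLII was more frequent at higher scores, at 19.5% in the lowest and 40.0% in the highest quintile. Regions with SOX2 had the same trend, so it was not particular to those without. In the lowest quintile 1683 of them had POLII and 1396 did not, and in the highest 6649 and 271.

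**Figure D2:**
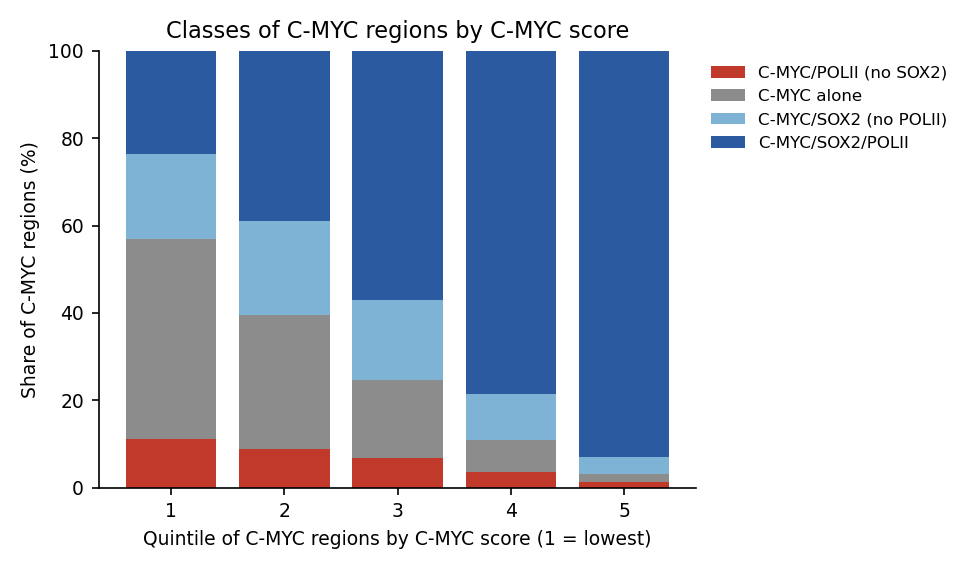
Division of the C-MYC regions of each score quintile (1 = lowest) into the 4 classes, in percent of the quintile. C-MYC/POLII regions decline from 11.1% to 1.26% as C-MYC/SOX2/POLII regions come to take 93.1% of the highest quintile. C-MYC-alone regions (45.8% to 1.89%) and regions with SOX2 but no POLII (19.5% to 3.79%) also end lower.

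Fewer POLII tags without SOX2 were seen in replicate 2 but hardly in replicate 1 when its regions were pooled. At the 1637 C-MYC/POLII regions with a peak of POLII replicate 2, the median was 40 tags (quartiles 25 and 73, range 12 to 2384). It was 119 tags at the 19993 regions with SOX2, a log2 difference of -1.57. The median fold enrichment was 6.43 against 9.07, and the POLII peaks were shorter, with a median of 655 against 993 bp. In POLII replicate 1 the median was 30 tags at 737 regions without SOX2 and 31 tags at 4374 regions with it, a log2 difference of -0.05, with fold enrichments of 6.65 and 7.03. These replicate 1 medians pooled unlike mixes of regions. Where POLII replicate 1 alone had a peak they were 29 tags without SOX2 and 32 with it. Where both POLII replicates had one they were 43 and 31. Over the POLII replicates the log2 difference was -0.81 ± 1.08 (SD, n = 2), which was not larger than their spread. It also rested on SOX2 replicate 1, without which the difference in POLII replicate 2 was -0.31. A POLII tag count belongs to the whole POLII peak, which can extend beyond the C-MYC region.

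At similar C-MYC tags the regions without SOX2 had fewer POLII replicate 2 tags, while POLII replicate 1 mostly went the other way. When all C-MYC regions were divided into quintiles by C-MYC tags, C-MYC/POLII regions had medians of 21, 32, 41, 65 and 191 POLII replicate 2 tags from the fewest to the most C-MYC tags. C-MYC/SOX2/POLII regions had 26, 39, 64, 131 and 293. As a ratio the gap was widest in the second highest quintile (65 against 131 tags), where the C-MYC tags were nearly alike, with medians of 77 and 86.5 without SOX2 and 83 and 92 with it. C-MYC fold enrichment was also lower there, at 8.33 and 8.37 against 10.89 and 10.67. For POLII replicate 1 the medians over the same quintiles were 24, 39, 46, 44 and 38 tags without SOX2 (374, 165, 94, 59 and 45 regions) and 29, 31, 32, 30 and 32 with it. The regions without SOX2 had more POLII replicate 1 tags in all quintiles but the lowest, so the POLII replicates differed in direction.

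**Figure D3:**
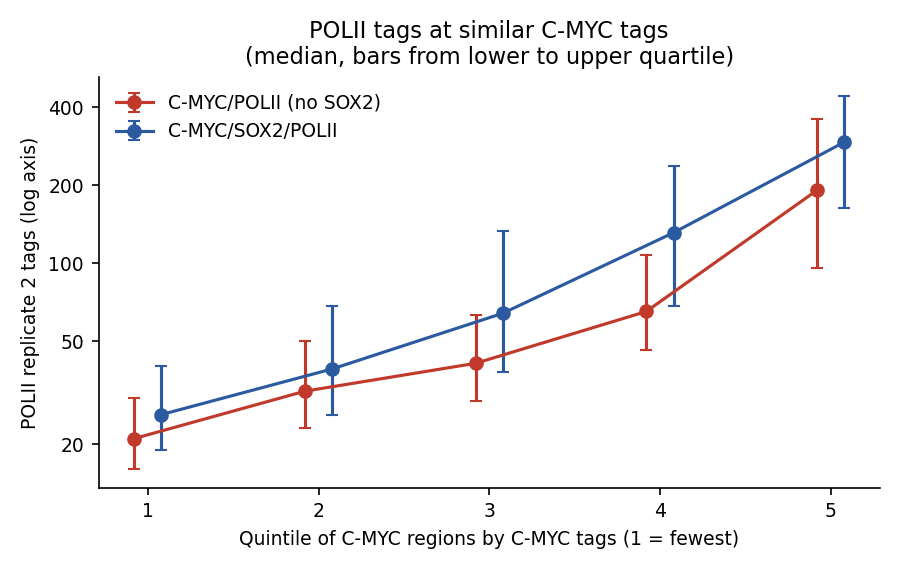
Median POLII replicate 2 tags (log axis, bars between the quartiles) by quintile of C-MYC tags, for C-MYC/POLII and C-MYC/SOX2/POLII regions. Both classes rise together, and the regions without SOX2 stay lower in each quintile, from 21 against 26 tags to 191 against 293.

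Whether POLII rose with C-MYC in these regions depended on the POLII replicate and on the measure of C-MYC. By tags, POLII replicate 2 rose in both classes. Across the 1637 regions Spearman's rho between C-MYC and POLII replicate 2 tags was 0.62 for C-MYC replicate 1 and 0.64 for replicate 2, against 0.70 and 0.70 across 19993 regions with SOX2. For POLII replicate 1 it was 0.35 and 0.36 across 737 regions without SOX2 but 0.05 and 0.05 across 4374 regions with it, so the order of the classes was the opposite. These correlations are across regions of the same libraries, which share peak width and local tag density, and are descriptions. By C-MYC score, the POLII replicate 2 medians of C-MYC/POLII regions were 42, 38, 40, 42 and 43 tags from the lowest to the highest quintile. Regions with SOX2 went from 53 to 224 tags over the same quintiles. The highest against the lowest quintile differed by 0.03 on the log2 scale in regions without SOX2 when ranked by score, by 3.19 when ranked by tags and by 1.85 when ranked by tags per kb. Leaving out SOX2 replicate 1 also gave 1.85 with the ranking by score.

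C-MYC and POLII summits lay close together. From the C-MYC summit to that of POLII replicate 2 the median distance was 52 bp for C-MYC replicate 1 and 53 bp for replicate 2, and 67.0% and 67.8% of the regions were within 100 bp. The summits of the C-MYC replicates themselves were 18 bp apart at the median. POLII replicate 1 summits lay farther off, at medians of 110 and 111 bp, with 48.3% and 46.9% within 100 bp. In C-MYC/SOX2/POLII regions the distance to POLII replicate 2 was nearly the same (59 and 59 bp), but that to replicate 1 was larger (209 and 213 bp). POLII replicate 1 summits were therefore nearer to C-MYC in the regions without SOX2, which were also the narrower ones. This set unlike mixes of regions side by side. Of the 737 regions without SOX2, 621 had POLII replicate 1 only, against 792 of the 4374 with SOX2. The distances of the classes were not compared within like regions.

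**Figure D4:**
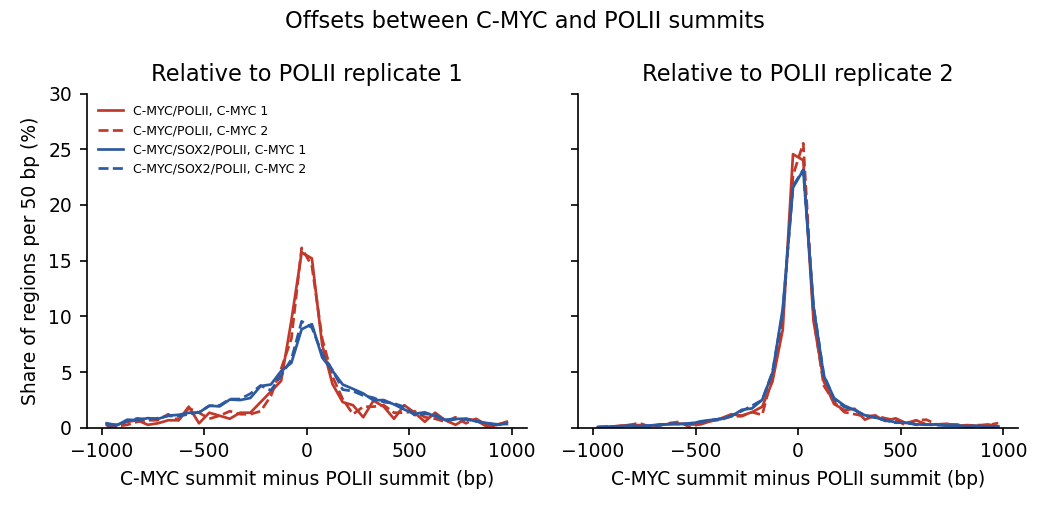
Signed distance in bp from POLII to C-MYC summits, as percent of regions per 50 bp, for POLII replicate 1 (left) and replicate 2 (right). Solid and dashed lines are C-MYC replicates 1 and 2. The classes nearly coincide for POLII replicate 2 (medians 52 to 59 bp), while for replicate 1 the regions without SOX2 are more peaked (110 and 111 bp against 209 and 213 bp).

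Most C-MYC/POLII regions had no SOX2 peak within 5 kb. The nearest SOX2 peak of either replicate was 8834 bp away at the median (quartiles 4035 and 18135 bp), and 693 regions (30.7%) had one within 5 kb. For scale, the nearest other C-MYC region was 11327 bp away at the median, farther than the nearest SOX2 peak. C-MYC-alone regions were at a median of 9817 bp from SOX2, with 27.3% within 5 kb. Within 1 kb the shares were 8.59% (194 regions) and 5.42%, so regions with POLII were somewhat nearer to SOX2 peaks. Of the POLII peaks on C-MYC/POLII regions, 10 of 738 in replicate 1 and 46 of 1637 in replicate 2 reached a SOX2 peak outside the region, a low number that the definition of the group largely fixes.

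**Figure D5:**
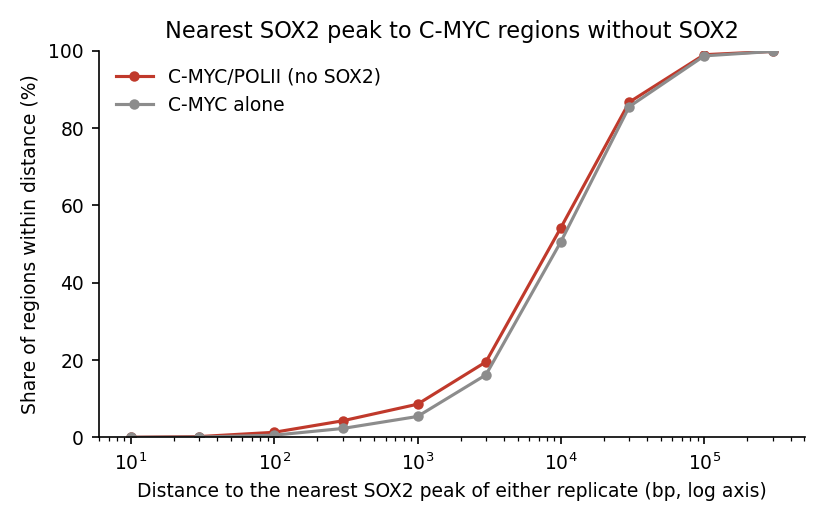
Cumulative percent of C-MYC/POLII and C-MYC-alone regions by distance to the nearest SOX2 peak (bp, log axis). The curves run close together, and within 1 kb C-MYC/POLII regions reach 8.59% and C-MYC-alone regions 5.42%.

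Few regions lay at the edge of the definition. A SOX2 peak was at most 100 bp away from 30 C-MYC/POLII regions, whose median C-MYC tags were 41.5 and 41. A further 13 regions with POLII had been left out for a SOX2 overlap of at most 100 bp, with 35 and 33 tags. The regions on either side of the SOX2 limit thus had similar tag counts. Their median C-MYC fold enrichments differed more, at 8.33 and 7.39 in the group and 9.51 and 9.67 in those left out. On the POLII side, 11 regions were held by an overlap of at most 50 bp (28 and 35 tags), and 68 regions without SOX2 were left out with a POLII peak at most 100 bp away (27.5 and 29 tags).

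The 10 regions with the highest C-MYC enrichment were taken from those with a peak of both POLII replicates. They had 10 to 57 C-MYC tags, on either side of the medians of 32.5 and 35 for all such regions, and POLII counts from 12 to 334 tags. Among the 116 regions with both POLII replicates, the highest C-MYC enrichment was at chr4:34002740-34003338 (mm9), at 21.79- and 20.14-fold with 39 and 43 C-MYC tags, and 12 and 23 POLII tags in replicates 1 and 2. Its summits of C-MYC replicate 1 and POLII were 32 and 69 bp apart. The next, chr4:3802110-3802558, had 18.92- and 19.32-fold enrichment on only 14 and 14 C-MYC tags, with its C-MYC summit at the very base of the POLII replicate 1 summit (0 bp) and 13 bp from that of replicate 2. At chr1:196330199-196330910 the enrichment was 23-fold and 18.51-fold with 46 and 41 C-MYC tags. These 3 regions were 449 to 712 bp wide and lay 7763, 17702 and 73523 bp from the nearest SOX2 peak, so that none of them was near the SOX2 limit.

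The other 7 regions of this set had C-MYC summits within 81 bp of POLII replicate 2, but not always of replicate 1. The region chr4:88584220-88584921 had 33 and 44 C-MYC tags with 94 and 31 POLII tags. The region chr7:103791954-103792871 had 55 and 57 C-MYC tags with 54 and 61 POLII tags. In both, the POLII replicate 1 summit was 638 bp or more from C-MYC, while replicate 2 was 14 and 18 bp away. At chr9:31720196-31720895 (41 and 50 C-MYC tags) a broad POLII replicate 1 peak of 334 tags had its summit 2132 bp away, against 20 bp for the 38 tags of replicate 2. The region chr12:104770111-104770793 (25 and 26 tags) and chr11:105814455-105815218 (52 and 51 tags) also had replicate 1 summits 739 and 455 bp off. The POLII replicates thus placed their maxima differently even where both called a peak. At chr3:157748666-157749197 (12 and 10 C-MYC tags) and chr11:111633872-111634346 (11 and 10 tags) both POLII summits were within 58 bp of C-MYC. Both regions had only 12 to 20 POLII tags, but POLII enrichments from 9.66- to 12.79-fold.

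The regions with most POLII replicate 2 tags were wide. The highest POLII replicate 2 count, 2384 tags, was at chr7:19892243-19895256, which carried 197 and 221 C-MYC tags over 3014 bp and lay 4329 bp from the nearest SOX2 peak. Next came chr6:147187492-147189423 with 1802 tags and chr6:145632595-145634804 with 1651 tags, both within chr6:142000001-149000000. Their POLII replicate 2 enrichments, 3.12- and 2.99-fold, were the lowest of these 5 regions. In chr6:147187492-147189423 the POLII summit lay outside the C-MYC region, 2491 bp from the summit of C-MYC replicate 1. The region chr17:28463895-28467552 had 1643 POLII tags and also ranked among the 5 highest for C-MYC, with 614 and 682 tags, and its nearest SOX2 peak was 12504 bp away. The last was chr2:30682328-30684831, with 1334 POLII tags and 202 and 213 C-MYC tags at 1602 bp from SOX2. None of these 5 had a peak of POLII replicate 1. This was the usual case, since 1521 of the 1637 C-MYC/POLII regions with a POLII replicate 2 peak had none of replicate 1.

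Of the 5 regions with most C-MYC tags, 4 were on distal chromosome 6. These were chr6:148339095-148342862 (811 and 875 tags), chr6:147454458-147458339 (794 and 859), chr6:148390938-148393905 (655 and 696) and chr6:145901651-145904356 (512 and 564), with enrichments between 3.04- and 7.34-fold. All 4 had a POLII replicate 1 peak, of 20 to 159 tags. Such a peak was present at 737 of all 2258 C-MYC/POLII regions, and at 51 of the 88 within chr6:142000001-149000000. High tags with low enrichment set them apart from the regions of highest enrichment above.

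C-MYC/POLII regions were found on all chromosomes but Y, at unequal shares. They made up between 4.69% (chromosome X, 36 of 768 regions) and 8.89% (chromosome 6, 202 of 2272) of the C-MYC regions of a chromosome, leaving aside Y, which held 1 C-MYC region. Chromosome 3 had the next highest share, 8.38% (95% Wilson interval 7.32 to 9.59, counting error only). In windows of 5 Mb with at least 30 C-MYC regions the median share was 5.84%, and the highest shares were 21.0% (57 of 271) at chr6:145000001-150000000 and 19.4% (34 of 175) at chr6:140000001-145000000, followed by 15.1% (21 of 139) at chr3:100000001-105000000. Within chr6:142000001-149000000, a block chosen with earlier results known for its tag counts, 88 of 383 C-MYC regions (23.0%) belonged to the group, against 6.14% elsewhere. Chromosome 6 without the block had 6.03%, close to the rest of the genome.

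The block regions had another make-up than the rest of the group. Their median C-MYC tags were 125.5 and 137.5, against 30 and 34 outside, while their fold enrichment was 5.16 and 4.79 against 10.06 and 9.76. POLII replicate 2 tags were 292.5 against 40 at the median, whereas POLII replicate 1 tags were 27 against 31. Among C-MYC regions with POLII, a peak of SOX2 replicate 1 was present at 33.1% in the block and 83.1% outside, and of SOX2 replicate 2 at 31.5% and 65.1%. Both SOX2 replicates thus called fewer peaks on the C-MYC regions of the block, and what part the tag density of the block had in this was not tested. Without the block, the log2 difference in C-MYC tags between regions without and with SOX2 was -1.29 and the ratio of fold enrichment 0.902, as large as or close to the values with it.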

How the data were processed

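ChIP-seq peaks of iMOP cells were analysed for 3 antibodies with 2 biological replicates each, and groups were taken from the sample labels. The authors called peaks per replicate, without pooling. The deposited tags per peak are raw counts, not scaled for library size. The score is 10 times the −log10 of a p-value, per the file headers, and the deposited fold enrichment is a linear ratio over a background that is not stated. The genome build, mm9, is from the submitters' processing notes. The aligner, peak caller and control are not given in the sources used here, and the input DNA was not analysed here. Positions are 1-based.

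Peaks were merged and classed in pandas 2.3.3, numpy 2.4.6 and scipy 1.17.1 under python 3.11.15. Where a list had several peaks on a region, their tags were summed, the highest fold enrichment and score were taken, and the summit was that of the peak with most tags. The scripts were tested on simulated peaks, and bedtools 2.31.1 gave the same 2258 regions. Quintiles rank all C-MYC regions by the lower of their ranks in the C-MYC replicates. No test was run, because regions are not replicates. Regions named are the 10 with the highest C-MYC enrichment (the smaller of the replicates) among those with both POLII replicates, and the 5 each with most POLII replicate 2 and most C-MYC tags. The definition of the group, the lists and the comparisons were chosen with earlier results of these data known.

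The reference tables at hand are of another build (GRCm38), so no gene was placed and no sequence read. The planned share of regions at TSSs, the E-box search and the counts over 10 gene lists were not run. Alternatives were stricter thresholds, equal list lengths, other overlap rules, both POLII replicates, leaving out the chromosome 6 block and leaving out each replicate. Ranking by tags or tags per kb was chosen after seeing the data.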

Additional observations from a re-analysis of the deposited data

How the results depend on the processing

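Of 128 values recomputed under 15 settings, 57 stayed within the spread between replicates or 1.5 times the count, and 71 moved. That spread was 1.08 for the log2 difference of POLII replicate 2 tags but 0.005 for the C-MYC enrichment ratio. The split therefore does not measure all results by the same standard. No recomputed difference between classes turned its direction. The POLII replicate 1 tag difference was not among those recomputed. Its medians were 43 tags without SOX2 and 31 with it where both POLII replicates had a peak. Without the chromosome 6 block they were 31 and 31. The cause of the moves was not tested. With a peak of both POLII replicates required, 116 regions remained, and the share with POLII among regions without SOX2 was 1.20%. The log2 difference of C-MYC tags was then -1.59, the fold-enrichment ratio 0.855 and the log2 difference of POLII replicate 2 tags -2.66. The length ratio was 0.642 and the summit distance 153 bp, against 81.5 ± 33.5 bp under the main definition. That mean and SD were taken over the median summit distances of 110, 52, 111 and 53 bp. Because these medians share lists, this is not an SD over independent replicates, but it served as the spread for this measure. Keeping only the higher-scoring 50% of each list left 678 regions, a POLII share of 15.2%, a C-MYC tag difference of -0.53, an enrichment ratio of 0.928 and a length ratio of 0.879. With 26637 peaks from every list, there were 1031 regions, with a tag difference of -0.68, an enrichment ratio of 0.948, a length ratio of 0.816 and a summit distance of 118.5 bp. The C-MYC tag difference was -1.22 with an overlap of 50%, -1.26 with no SOX2 peak within 1 kb and -1.29 without the chromosome 6 block. The enrichment ratio was 0.902 with no SOX2 peak within 1 kb, 0.880 with a SOX2 summit needed to drop a region and 0.902 without the block, where the length ratio was 0.688. Leaving out each replicate gave 737 to 8103 regions, a POLII share of 7.63% to 45.6%, C-MYC tag differences of -1.97 to -0.66, enrichment ratios of 0.866 to 0.943, POLII replicate 2 tag differences of -1.69 to -0.31, length ratios of 0.556 to 0.900 and summit distances of 52.5 to 112 bp. The extremes were mostly those without SOX2 replicate 1 or without POLII replicate 2. The log2 change of POLII replicate 2 tags over C-MYC score quintiles in regions without SOX2 was near 0 and changed sign, to -0.40 with the highest-scoring peaks, -0.32 with equal lists and -0.04 without the block, and was 1.85 without SOX2 replicate 1. No paired analysis was possible because no test across samples was run, and the replicate numbers were not used to pair lists of different antibodies. The share of regions at TSSs, the E-box search and the gene lists, with their alternatives, were not run.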
